A study of Mus musculus with 6 samples.

Results

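Described here are 8 genes of the mouse retina. These are the S100 genes S100a4, S100a6, S100a10 and S100a11, the annexin genes Anxa1 and Anxa5, the galectin-1 gene Lgals1 and the LIM-domain gene Crip1. They were taken by symbol from the 31053 genes listed in the matrices, and they had been picked because their counts in some retinal cell types differed between retinopathy and control samples, so that those differences are a description. Counts of members called by the fit stand beside the share of all genes called, and nothing is read from them. Single-cell RNA was measured in 6 samples, each made from the retinas of 2 mice at postnatal day 17 (P17). The 3 oxygen-induced retinopathy samples (OIR-1, OIR-2 and OIR-3) came from pups that breathed 75% oxygen between P7 and P12 and room air for the following 5 days, and the 3 control samples (Ctrl-1, Ctrl-2 and Ctrl-3) came from pups of the same age kept in room air throughout. No genotype, transgene or drug is named for either group, and a strain is not given in the labels. Where p-values appear below they measure the spread between these samples, since nothing says how the pools were raised or drawn.

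S100 proteins are small EF-hand proteins that bind calcium and then dock onto partner proteins, and several of them bind annexins, which attach to acidic phospholipids of membranes when calcium is high. S100a10 is the partner of Anxa2 on the cell surface, where the pair holds plasminogen and its activator, S100a11 pairs with Anxa1, and S100a6 and S100a4 bind cytoskeletal and other targets. Lgals1 is a galactoside-binding lectin of stromal, vascular and glial cells, and Crip1 is a small protein with a single LIM domain that is abundant in smooth muscle and in immune cells. Müller glia, the radial glia that span the retina, become reactive when the retina is hypoxic or injured.

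The labels describe the material as retinal endothelial cells, but the cells were those of the whole retina. Vascular endothelial cells (VEC-like, named from markers such as Cldn5 and Pecam1) made up 0.503% of the 38569 cells kept, and rod-like cells numbered 25763. The samples held between 15788524 and 42606878 UMIs (unique molecular identifiers, counted RNA molecules), and both replicate 1 samples were deeper than the others. Xist was detected in Ctrl-2 and Ctrl-3 and Y-linked genes in the other 4 samples, and the groups therefore differed in sex, whose part in the members' values is given only through fits with a sex term. Any pair of samples shared between 9 and 34 cell barcodes, at most 0.372% of the smaller sample. Cells fell into 23 clusters, of which 21 were named from marker genes as 12 cell types, and 246 cells stayed unnamed. The fit needed at least 10 cells in every sample and was run for 8 types, and for VEC-like cells in any case.

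In control retinas the 8 genes were mainly genes of glia and mural cells. S100a10, S100a11, Anxa1, Anxa5 and Crip1 were also found in VEC-like cells, where S100a4, S100a6 and Lgals1 had only 2, 8 and 2 UMIs. Levels are given as CPM, the usual scaled ratio of the UMIs of a gene to all UMIs summed over the cells of 1 type and sample, as mean ± SD over the 3 control samples, and they rank cell types for a gene, not genes against each other. S100a10 was highest in Müller-like cells at 243 ± 56.8 CPM, ahead of VEC-like cells at 188 ± 78.7 CPM, and these ranges overlapped. Anxa1 was also highest in Müller-like cells, at 388 ± 149 CPM, followed by smooth muscle and pericyte-like cells at 245 ± 123 CPM, again with overlap. It then stood at 34.8 ± 17.1 CPM in VEC-like cells, and no Anxa1 UMI was found in RPE-like (retinal pigment epithelium), astrocyte-like or lens-like cells of any control sample. Müller-like cells held 89.3% of all Anxa1 UMIs of the control samples and 75.8% of those of S100a10.

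The other members were highest in mural cells (smooth muscle and pericyte-like), except S100a4. The cluster named mural also carried fibroblast markers in the control samples, as given below, and their part in these levels was not tested. Crip1 reached 3000 ± 672 CPM in smooth muscle and pericyte-like cells and 930 ± 95.5 CPM in astrocyte-like cells, with no overlap between them, against 63.6 ± 11.7 CPM in Müller-like cells. S100a11 stood at 782 ± 221 CPM in mural cells, 238 ± 79.8 CPM in VEC-like cells and 84.6 ± 26.9 CPM in Müller-like cells, and the samples of these 3 types were separate. Anxa5, which binds phosphatidylserine, stood at 685 ± 166 CPM in mural cells, 361 ± 107 CPM in VEC-like cells, 306 ± 57.7 CPM in astrocyte-like cells and 217 ± 35.4 CPM in Müller-like cells, where each neighbour after the mural cells overlapped with the next. Lgals1 reached 644 ± 244 CPM in mural cells and 24.7 ± 1.92 CPM in Müller-like cells, with microglia-like, astrocyte-like and RPE-like cells between them at 61.0 ± 75.9, 44.7 ± 54.3 and 38.2 ± 4.51 CPM. S100a6 stood at 435 ± 177 CPM in mural cells and 147 ± 43.8 CPM in Müller-like cells. S100a4 stood at 57.6 ± 65.2 CPM in microglia-like cells and 42.7 ± 12.8 CPM in Müller-like cells, and these overlapped. Few microglia-like cells carried it. Over all 6 samples a UMI of S100a4 was seen in 13 of 244 cells of a high-UMI cluster and 13 of 374 of a low-UMI cluster. Microglia-like cells held 46 S100a4 UMIs in the OIR samples and 121 in the control samples. Fewer than 30 of these lay in the high-UMI cluster, so that most came from the low-UMI cluster. The Lgals1 level of control microglia-like cells also came mainly from the low-UMI cluster, described below.

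Summed over all kept cells S100a6 stood at 116, 61.4 and 45.8 CPM in the OIR samples and at 33.3, 27.8 and 24.9 CPM in the control samples. S100a11 lay between 27.9 and 51.7 CPM in the OIR samples and between 15.4 and 26.4 CPM in the control samples. These were the 2 of 8 members without overlap, where 10.8% of the 16574 genes with at least 30 UMIs were higher without overlap. Such sums move with the number of cells of a type as well as with RNA per cell, and these cannot be told apart in them.

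**Figure D1:**
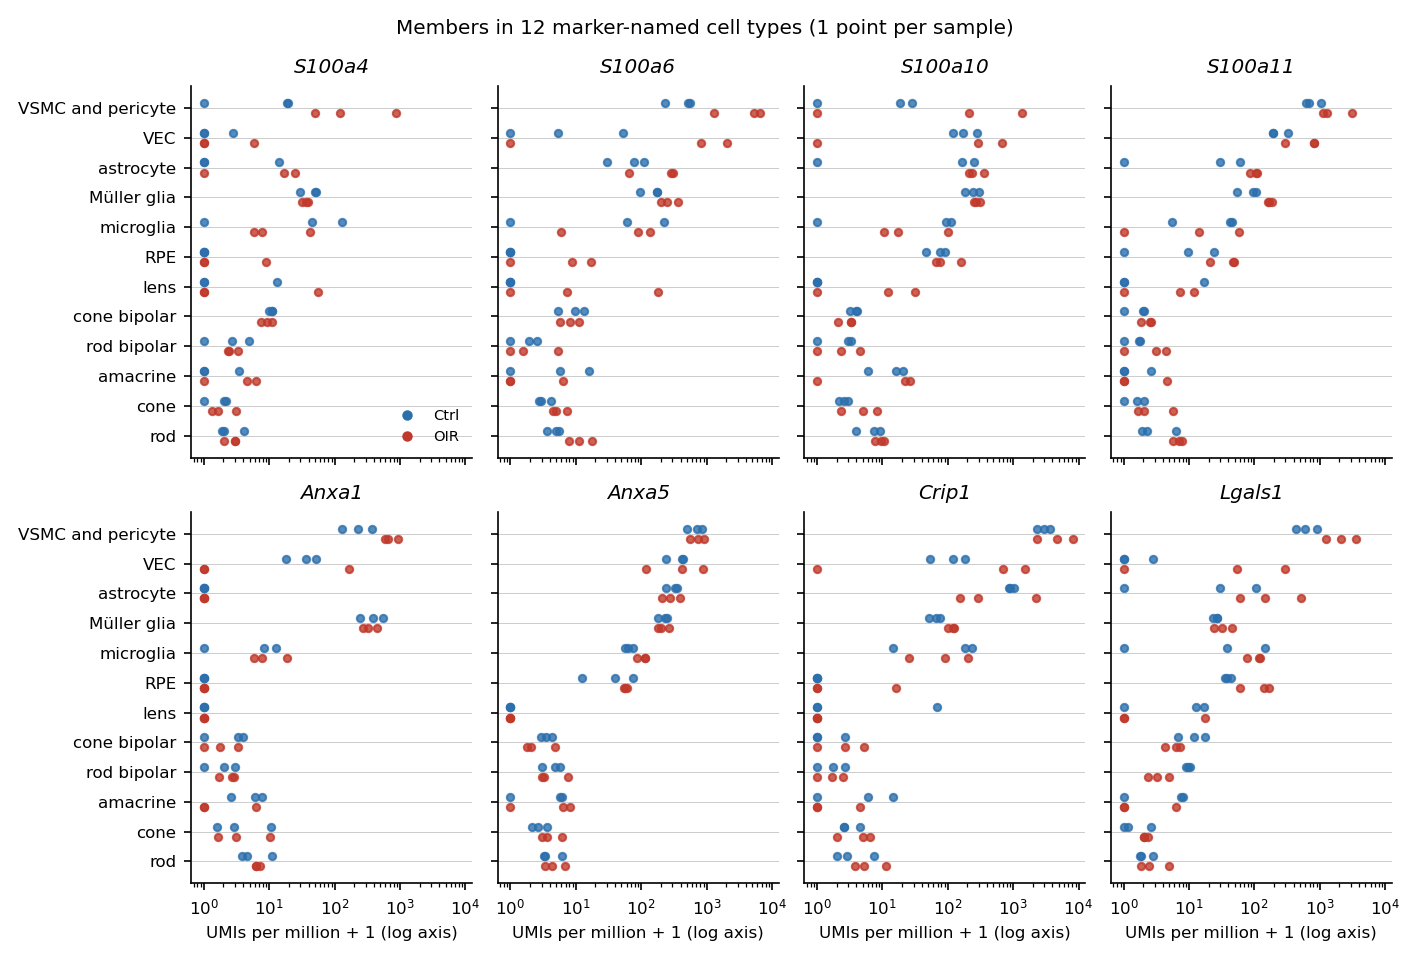
CPM + 1 of each member on a log axis, 1 panel per gene and 1 line per cell type, with 1 point per sample (blue Ctrl, red OIR), where a point at 1 is a sample with no UMI. Within a panel the points lie farthest right in mural, VEC-like, astrocyte-like, Müller-like or microglia-like cells, and those of neurons lie near the left edge.

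In Müller-like cells (3485 cells, named from Rlbp1, Glul, Aqp4 and others) the question was how far each gene differed between OIR and control retinas. S100a6 stood at 363, 246 and 200 CPM in OIR-1, OIR-2 and OIR-3 and at 96.5, 173 and 171 CPM in Ctrl-1, Ctrl-2 and Ctrl-3. Every OIR sample was above every control sample, although OIR-3 was only a little above Ctrl-2. S100a11 stood at 164, 184 and 159 CPM in the OIR samples and at 53.8, 104 and 96.0 CPM in the control samples. The OIR samples lay close together and well above the controls. Crip1 stood at 122, 100 and 120 CPM in the OIR samples and at 51.5, 74.8 and 64.4 CPM in the control samples, again with a gap between the groups. The ratios of the group means were 1.83 for S100a6, 2.00 for S100a11 and 1.79 for Crip1.

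The other 5 members overlapped between the groups. S100a10 stood at 315, 272 and 247 CPM against 185, 246 and 299 CPM, and Anxa5 at 262, 197 and 181 CPM against 177, 232 and 244 CPM. Their highest control samples lay within or above the OIR range. Anxa1, a mediator of the resolution of inflammation, stood at 323, 445 and 273 CPM in the OIR samples and at 244, 379 and 541 CPM in the control samples. The highest of the 6 was a control sample, and the same held for S100a4, at 38.0, 30.6 and 35.4 CPM against 28.1, 48.3 and 51.6 CPM. Lgals1 stood at 43.8, 31.3 and 23.4 CPM against 25.9, 25.6 and 22.5 CPM, so that OIR-3 lay within the control range.

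**Figure D2:**
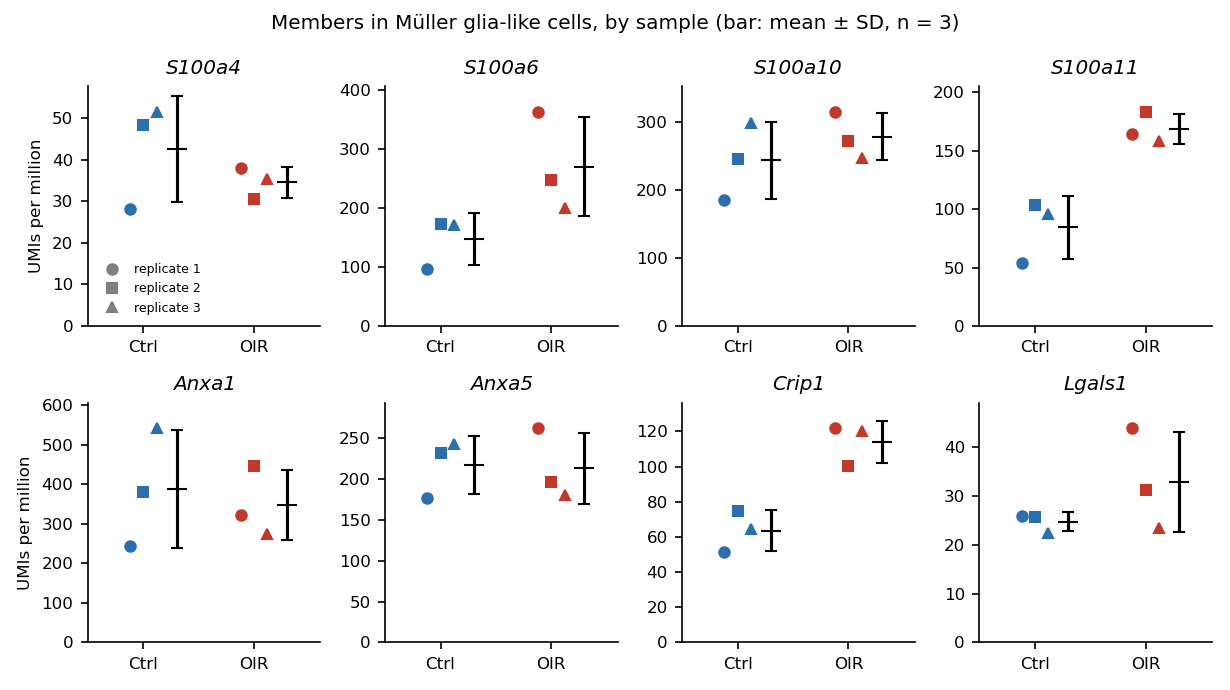
CPM of each member in Müller-like cells, 1 point per sample (circle, square and triangle for replicates 1, 2 and 3), with a bar at the group mean ± SD (n = 3) and an axis from 0. The OIR points of S100a6, S100a11 and Crip1 lie above all their control points, and those of the other 5 genes overlap.

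Ctrl-1 was the lowest of the 6 samples for 7 of the 8 members in Müller-like cells, all but Lgals1, and OIR-1 was the highest for 5. The log2 fold changes of the edgeR fit were 0.83 for S100a6, 0.95 for S100a11, 0.79 for Crip1, 0.37 for Lgals1, 0.13 for S100a10, -0.08 for Anxa5, -0.23 for Anxa1 and -0.31 for S100a4. Without Ctrl-1 those of S100a6, S100a11 and Crip1 became 0.59, 0.68 and 0.64, and those of S100a10 and Anxa1 became -0.03 and -0.49. Without OIR-1 the value of Lgals1 dropped to 0.03. The median over the 8 members was 0.25, beside -0.01 over the 11533 genes tested in these cells. As the members had been picked on this contrast, nothing is read from that median.

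A gene was called where the adjusted p was below 0.05 and the size of the log2 fold change reached 0.25. By edgeR's quasi-likelihood test 1 of the 8 members was called higher, Crip1, where 1.52% of all genes tested were called higher, and 0 were called lower, where 1.02% of all genes were. Since the members had been picked on this contrast, nothing is read from that count. The groups did not overlap for 3 of the 8 members, all higher in OIR, where the same held for 13.8% of the 12944 genes with at least 30 UMIs in Müller-like cells. Crip1 was not called once OIR-1, OIR-3, Ctrl-2 or Ctrl-3 was left out, and S100a11 was called without Ctrl-1.

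The promoters of the 3 genes that did not overlap, and of Anxa2, which is described below, are shown because these 4 genes were higher in every OIR sample in Müller-like cells. They are the 250 bases before the annotated start on GRCm38.p6, from RefSeq, which held such a window for 6 of the 8 members (not S100a10 or Lgals1). Capitals mark matches on either strand to AP-1 (TGANTCA), STAT (TTCNNNGAA), the hypoxia response core (ACGTG or GCGTG), TEAD (GGAATG) and SP1 (GGGCGG). The windows lie at chr3:90612644-90612893 for S100a6, chr3:93520246-93520495 for S100a11, chr12:113151762-113152011 for Crip1 and chr9:69453433-69453682 for Anxa2, all on the plus strand.
S100a6: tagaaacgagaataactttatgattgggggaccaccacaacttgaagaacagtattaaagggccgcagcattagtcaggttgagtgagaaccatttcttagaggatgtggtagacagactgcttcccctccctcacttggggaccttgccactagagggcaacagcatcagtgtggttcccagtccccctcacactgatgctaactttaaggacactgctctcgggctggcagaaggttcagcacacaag
S100a11: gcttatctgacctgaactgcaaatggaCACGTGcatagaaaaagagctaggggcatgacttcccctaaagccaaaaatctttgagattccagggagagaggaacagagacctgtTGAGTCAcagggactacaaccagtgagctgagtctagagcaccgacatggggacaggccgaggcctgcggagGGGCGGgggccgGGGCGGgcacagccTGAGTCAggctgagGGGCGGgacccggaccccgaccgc
Crip1: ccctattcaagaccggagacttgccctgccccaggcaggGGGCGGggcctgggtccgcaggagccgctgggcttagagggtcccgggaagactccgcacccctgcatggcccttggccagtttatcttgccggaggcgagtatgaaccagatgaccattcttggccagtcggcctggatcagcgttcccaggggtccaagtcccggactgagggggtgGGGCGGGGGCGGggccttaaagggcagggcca
Anxa2: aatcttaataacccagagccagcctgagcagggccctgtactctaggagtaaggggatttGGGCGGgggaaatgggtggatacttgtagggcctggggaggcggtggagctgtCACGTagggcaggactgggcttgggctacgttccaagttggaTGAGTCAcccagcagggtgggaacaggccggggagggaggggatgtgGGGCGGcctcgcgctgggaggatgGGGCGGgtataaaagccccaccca

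S100a11 had 2 AP-1 matches, 136 and 38 bases before the start, where 6.75% of the 32851 mouse promoters had any. It also had 3 SP1 matches, and its CACGTG at 223 bases before the start counted as 2 overlapping matches to ACGTG, 1 on each strand. Anxa2 had 1 AP-1 match at 95 bases, 1 match to ACGTG and 3 to SP1. Crip1 had 3 matches to SP1 and none to the others, and S100a6 had none at all. Among members that overlapped between the groups, Anxa1 had 1 TEAD match, Anxa5 had 1 match to ACGTG and 2 to GCGTG, and S100a4 had none. Over all promoters the shares with a match were 7.02% for STAT, 16.6% for ACGTG, 28.2% for GCGTG, 12.6% for TEAD and 32.7% for SP1. These matches describe the letters of the windows and were not tested against binding.

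In the annotation (GENCODE M21, GRCm38) the 4 S100 genes and Anxa5 lie on chromosome 3, S100a4 at 90603771-90606045, S100a6 at 90612882-90624181, S100a11 at 93520488-93526287, S100a10 at 93555080-93564643 and Anxa5 at 36448923-36475894. Crip1 lies on chromosome 12 at 113146316-113153879, so that its RefSeq start used above is inside the annotated gene, Anxa1 on chromosome 19 at 20373428-20390944 and Lgals1 on chromosome 15 at 78926725-78930465. All are protein-coding. S100a4 overlaps Gm42674 on its own strand and Anxa1 overlaps 1500015L24Rik on the other, and the reads of S100a4 may be shared with its neighbour.

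Müller-like cells formed 2 clusters that differed in UMIs per cell, and the low-UMI cluster held 29.0%, 52.9% and 55.1% of them in the OIR samples and 25.1%, 37.3% and 30.8% in the control samples. In the high-UMI cluster S100a11 stood at 159, 168 and 156 CPM in the OIR samples and at 52.3, 99.6 and 101 CPM in the control samples. Crip1 there stood at 118, 94.3 and 110 CPM against 47.5, 74.0 and 65.4 CPM. For both genes all OIR samples were higher, whereas S100a6 overlapped, at 349, 191 and 175 CPM against 88.1, 172 and 176 CPM. In the low-UMI cluster S100a6 stood at 474, 487 and 292 CPM against 173, 185 and 134 CPM, a wider gap than over all Müller-like cells. S100a11 stood there at 202, 249 and 169 CPM against 68.3, 137 and 56.0 CPM. Crip1 stood there at 148, 126 and 158 CPM against 88.1, 81.5 and 56.0 CPM. Anxa5 was also higher in all OIR samples of this cluster, at 272, 218 and 192 CPM against 158, 182 and 157 CPM. The groups did not overlap, with OIR higher, for 2 of the 8 members in the high-UMI cluster (13.4% of all genes) and for 4 in the low-UMI cluster (10.9% of all genes).

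Markers of other cells moved too. Summed over 8 fibroblast markers, such as Col1a1 and Dcn, Müller-like cells held 26.3 to 39.0 CPM in the OIR samples and 4.25 to 13.3 CPM in the control samples, and no marker of that list was at 0. The 9 Müller markers summed to between 22462 and 29239 CPM in the OIR samples and to between 29413 and 40075 CPM in the control samples. The 14 blood leukocyte markers, 6 of them at 0, summed to 1.56 to 14.2 CPM in the OIR samples and 0.420 to 23.3 CPM in the control samples. The part of these shifts in the members' values was not tested.

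The share of Müller-like cells with a UMI of each gene was compared after each cell had been thinned to 1000 UMIs, which left 913, 453 and 498 cells in the OIR samples and 885, 273 and 241 in the control samples. S100a6 was then seen in 21.4%, 18.3% and 16.9% of cells in the OIR samples and in 9.94%, 16.5% and 13.7% in the control samples. S100a11 was seen in 13.8%, 15.5% and 13.9% against 5.20%, 11.4% and 10.8%. Crip1 was seen in 12.3%, 7.73% and 10.8% against 5.31%, 7.33% and 4.98%. All OIR samples were above all control samples for these 3 genes, by a narrow margin for S100a6 and Crip1. The share of all genes separated in this way was not counted. The members had been picked on this contrast, and nothing is read from the count. Unthinned shares overlapped for each of them, at 41.3% to 59.9% against 36.1% to 54.8% for S100a6, at 43.0% to 59.6% against 26.1% to 47.9% for S100a11 and at 28.1% to 45.5% against 21.9% to 37.0% for Crip1. The unthinned cells differed in depth, with median UMIs of 8553, 3337 and 2400 in the OIR samples and 6573, 8494.5 and 6803.5 in the control samples.

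The other members overlapped in the thinned shares, which ranged from 2.03% to 5.42% for S100a4, 16.6% to 26.6% for S100a10, 16.6% to 33.2% for Anxa1, 15.3% to 22.0% for Anxa5 and 2.20% to 4.38% for Lgals1 over the 6 samples. Rod-like cells, which should lack these genes, gave a background at the same thinned depth of 0.222% to 1.38% for S100a6, 0.0555% to 0.692% for S100a11 and 0.0555% to 0.983% for Crip1. They include a cluster of 942 cells that also carried Müller RNA, described below, whose part in this background was not tested. The rod background of S100a6 was itself higher in the OIR samples, at 1.38%, 0.988% and 0.694% against 0.465%, 0.314% and 0.222%. It stayed far below the share in Müller-like cells of the same sample.

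**Figure D3:**
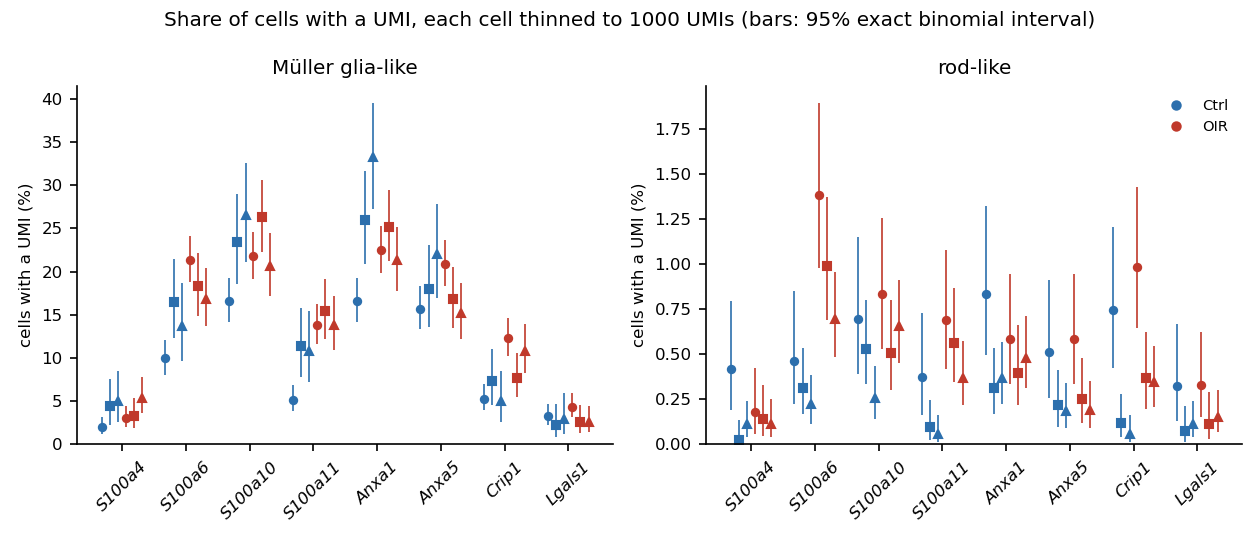
Share of cells with a UMI of each member after thinning to 1000 UMIs, in Müller-like cells and in rod-like cells as background, 1 point per sample with an exact 95% binomial interval, the 2 panels having different axes. The OIR points of S100a6, S100a11 and Crip1 lie above the control points in Müller-like cells, and the rod-like points stay at or below 1.38%.

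At least 3 of the 8 genes were seen in 12.9%, 11.3% and 9.84% of cells of the OIR samples and in 2.71%, 8.42% and 9.54% of cells of the control samples. The gap between OIR-3 and Ctrl-3 was small. No other set of genes was counted in this way. The members had been picked on this contrast, and nothing is read from the gap. None of the 8 was seen in 29.9%, 30.7% and 35.5% of cells against 46.0%, 31.9% and 27.4%. Pairs of members were found in the same cell about as often as their single shares gave, with a median ratio of observed to expected cells of 1.08 over 28 pairs and 6 samples. For 5 pairs the ratio was above 1 in every sample, namely S100a6 with S100a10, S100a10 with S100a11, S100a10 with Crip1, S100a11 with Anxa5 and S100a11 with Lgals1. At 2000 UMIs only 1 pair was, and 16 of the 28 pairs had fewer than 3 expected cells in some sample at 1000 UMIs.

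In VEC-like cells the counts came mostly from single samples, with 25, 2 and 2 cells in the OIR samples and 145, 4 and 16 in the control samples. S100a6 stood at 2066 CPM in OIR-1 (426 UMIs) and 825 CPM in OIR-2 (7 UMIs, 95% Poisson interval 332 to 1701), and no UMI was found in OIR-3, which allows up to 877 CPM. In the control samples it stood at 4.44 CPM in Ctrl-1 (5 UMIs), at 0 in Ctrl-2, which allows up to 52.1 CPM, and at 51.5 CPM in Ctrl-3 (3 UMIs). OIR-1 and OIR-2 thus stood above the controls, and OIR-3 could not show a difference at its depth. A UMI was seen in 12 of 25 cells of OIR-1 and in 1 of 2 cells of OIR-2. In the control samples it was seen in 5 of 145, 0 of 4 and 1 of 16 cells. The OIR-2 value is that of a single cell, and its interval covers counting error alone. S100a11 stood at 805, 825 and 292 CPM in the OIR samples and at 195, 330 and 189 CPM in the control samples, where the value of OIR-3 was 1 UMI. Crip1 stood at 1532, 708 and 0 CPM against 185, 52.1 and 120 CPM. S100a10, Anxa1, Anxa5 and S100a4 also overlapped between the groups. Lgals1 had few UMIs in control endothelium, with 2 in Ctrl-1 and 0 in the others, and 11, 0 and 1 UMIs were found in the OIR samples. Of the 4 members that passed the filter on low counts 0 were called, where 0% of the 952 genes tested were called higher and 0.315% lower, by edgeR with Benjamini-Hochberg adjustment.

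Marker levels of those cells varied between samples. The 10 VEC markers summed to 8283, 19693 and 1462 CPM in the OIR samples and to between 11667 and 17268 CPM in the control samples, and fibroblast markers reached 13915 CPM in the 2 cells of OIR-2. The part of these markers in the members' values was not tested.

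Mural cells (smooth muscle and pericyte-like, 5, 2 and 6 cells against 63, 5 and 5) were too few for a fit. S100a6 stood at 1287, 5270 and 6653 CPM in the OIR samples and at 551, 232 and 522 CPM in the control samples. Lgals1 stood at 2109, 3533 and 1236 CPM against 594, 909 and 429 CPM. S100a11 stood at 1275, 3168 and 1117 CPM against 621, 1034 and 690 CPM. All OIR samples were higher for these genes, and the same held for Anxa1, at 920, 579 and 665 CPM against 231, 374 and 131 CPM. S100a4 stood at 49.0, 122 and 855 CPM against 17.6, 0 and 18.6 CPM, on 4, 4 and 36 UMIs against 9, 0 and 1. Thus 5 of the 8 members did not overlap, where 3.65% of the 4218 genes with at least 30 UMIs did not overlap with OIR higher, and nothing is read from that count. Crip1 overlapped, at 2317, 8133 and 4657 CPM against 3691, 2960 and 2350 CPM, as did Anxa5 and S100a10.

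The 6 cells of OIR-3 in this cluster carried mostly fibroblast markers, and the name mural does not describe them. Over all samples the 10 leading genes of the cluster also included the fibroblast markers Mgp, Col3a1, Col1a1 and Col1a2. In the OIR-3 cells the 10 mural markers summed to 1212 CPM, against 24987 and 39447 CPM in the other OIR samples and 31504 to 35434 CPM in the control samples. Their fibroblast markers summed to 79031 CPM against 10536 to 16741 CPM in the other 5 samples. Every OIR sample was above every control sample for S100a6, S100a11, Anxa1, Lgals1 and S100a4. Leaving out OIR-3 could not change that, so it cannot show the part of the OIR-3 cells. The part of the fibroblast markers in these values was not tested.

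Astrocyte-like cells (17, 11 and 3 cells against 22, 2 and 1) held S100a11 at 108, 107 and 86.3 CPM in the OIR samples and at 59.1, 28.9 and 0 CPM in the control samples. The OIR samples were higher, but Ctrl-2 and Ctrl-3 rested on 1 UMI and none, which for Ctrl-3 allows up to 166 CPM. The groups did not overlap for 1 of the 6 members with at least 30 UMIs, S100a11, and 7.63% of genes with that many were higher without overlap. S100a6 overlapped at 281, 308 and 64.7 CPM against 75.6, 28.9 and 110 CPM. Crip1 was spread more widely within the OIR samples, at 289, 2262 and 151 CPM, than within the control samples, at 867, 1040 and 883 CPM. Anxa1 had 0 UMIs in all 6 samples.

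Among microglia-like cells (618 cells) Anxa5 stood at 86.6, 115 and 114 CPM in the OIR samples and at 73.0, 62.8 and 55.6 CPM in the control samples, and the groups did not overlap. This held for 1 of 8 members, where 6.41% of the 8286 genes with at least 30 UMIs were higher without overlap, and 0 of the 7 members that passed the filter were called by edgeR, where 0.417% of genes were called higher and 0.0198% lower. The other members overlapped between the groups. S100a6, for instance, stood at 137, 87.9 and 4.85 CPM against 225, 0 and 59.3 CPM. Markers of other cells were measured beside these values. The 9 Müller markers, none of them at 0, summed to 36729, 39109 and 39733 CPM in the OIR samples and to 15259, 15716 and 16258 CPM in the control samples. Nearly all of this was Apoe, a lipid carrier that microglia also make, at 36239, 38291 and 39187 CPM against 14500, 15034 and 15483 CPM. The other 8 Müller markers summed to 489, 818 and 546 CPM against 760, 682 and 775 CPM and overlapped between the groups. The 9 microglia markers summed to 28036 to 31104 CPM against 28775 to 32224 CPM. The part of these cells in the values of Anxa5 was not tested.

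The high-UMI cluster, 244 cells led by Cx3cr1 and C1qa, held few UMIs of S100a6, at 9.09, 5.55 and 0 CPM in the OIR samples and 0 in every control sample. Lgals1 there stood at 119, 133 and 56.3 CPM in the OIR samples and at 20.4, 0 and 0 CPM in the control samples, where a count of 0 allows up to 21.0 CPM in Ctrl-2 and 15.8 CPM in Ctrl-3. Over all 6 samples only 23 of the 244 cells held a UMI of Lgals1, and 80 held a UMI of Anxa5. Anxa5 there stood at 80.5, 83.3 and 88.4 CPM against 74.8, 63.0 and 47.5 CPM. Both genes were higher in all OIR samples, 2 of the 3 members with at least 30 UMIs, where 6.11% of genes were. A fit of this cluster alone, chosen after the data were seen, called 1 member higher, Lgals1, and 0 lower, where 0.295% of genes were called higher and 0.0295% lower. Without Apoe the Müller markers summed there to 501, 933 and 615 CPM against 881, 783 and 923 CPM, with Aqp4 at 0, and the part of such RNA in Lgals1 was not tested. In the low-UMI cluster, 374 cells led by Hmox1 and Lyz2, S100a6 ranged from 0 to 731 CPM and Crip1 from 0 to 747 CPM over the 6 samples, and Anxa5 was higher in all OIR samples, at 105, 164 and 153 CPM against 68.9, 62.6 and 74.9 CPM, 1 of the 7 members with at least 30 UMIs, where 8.66% of genes were. Apoe stood at 41436, 44010 and 50978 CPM against 16055, 19935 and 19664 CPM in the high-UMI cluster. In the low-UMI cluster it stood at 20703, 29403 and 21220 CPM against 10999, 6268 and 5583 CPM. The other 8 Müller markers summed there to 454, 639 and 441 CPM against 486, 500 and 425 CPM, and their part was not tested. Igkc, an immunoglobulin gene of B cells, stood in the low-UMI cluster at 207 CPM in Ctrl-1 and 6158 CPM in Ctrl-3 and at 0 in the other 4 samples. The part of such cells in the members' values was not tested.

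In RPE-like cells Lgals1 stood at 59.8, 168 and 138 CPM in the OIR samples and at 34.3, 43.1 and 37.1 CPM in the control samples. These rested on 3, 21 and 18 UMIs against 3, 10 and 1, so that the intervals of single samples overlapped, such as 12.3 to 175 CPM in OIR-1 and 20.7 to 79.3 CPM in Ctrl-2. The groups did not overlap for 1 of the 2 members with at least 30 UMIs there, Lgals1, and 5.47% of the 3380 genes with that many were higher without overlap. In lens-like cells S100a6 had 65 UMIs in OIR-2, 181 CPM, 1 UMI in OIR-3 and none in the other 4 samples.

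Neurons held little of these genes. In rod-like cells S100a6 stood at 16.9, 10.1 and 6.99 CPM in the OIR samples and at 4.50, 4.04 and 2.58 CPM in the control samples, 1 of 8 members without overlap, where 22.2% of the 12803 genes with at least 30 UMIs were higher without overlap. The fit called 0 of the 8, where 1.17% of genes were called higher and 0.745% lower. With the replicate number as a block it called 1 higher, S100a6, where 5.07% of genes were called higher and 4.75% lower. Same-numbered samples deviated together in these cells, with correlations of 0.498, 0.197 and 0.482. The ratio of the rod to the Müller level had a median of 3.80% over the 6 samples for S100a6 and 1.80% for Rlbp1, a Müller gene. A rod-like cluster of 942 cells also carried Müller RNA, with S100a6 at 221, 103 and 82.9 CPM against 46.3, 31.5 and 41.4 CPM, 1 of 8 members without overlap, where 9.28% of genes were higher. Without that cluster S100a6 stood at 7.14, 4.02 and 3.11 CPM against 0.976, 2.06 and 1.79 CPM. S100a11 then stood at 3.93, 3.04 and 2.07 CPM against 1.37, 0.650 and 0.631 CPM. These 2 members were the ones without overlap, where 22.4% of genes were higher. The ratio to Müller-like cells was then 1.37% for S100a6 and 0.748% for Rlbp1.

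Bipolar cells carried Lgals1 and S100a4 in another proportion. In cone bipolar-like cells the level of S100a4 was a median of 21.3% of that in Müller-like cells and that of Lgals1 21.4%, against 0.698% for Rlbp1. S100a4 stood there at 6.55, 10.1 and 8.26 CPM against 10.1, 8.82 and 9.93 CPM and did not separate the groups. It was concentrated in a cluster of 650 cells led by Otor and Grik1, at 25.2, 40.6 and 36.6 CPM against 25.5, 23.6 and 33.9 CPM. Most Lgals1 UMIs of these cells came from clusters led by Kcng4, at 7.39, 10.5 and 7.92 CPM against 20.7, 5.43 and 33.1 CPM, and by Adarb2, at 8.64, 9.79 and 2.43 CPM against 16.3, 12.1 and 0 CPM. In rod bipolar-like cells Lgals1 was lower in OIR, at 3.99, 2.31 and 1.36 CPM against 8.62, 9.33 and 8.13 CPM, on 19, 4 and 2 UMIs against 47, 12 and 8. The groups did not overlap, which held in this direction for 1 of the 3 members with at least 30 UMIs and for 7.20% of the 11248 genes with at least 30 UMIs. The fit called 0 of the members in cone bipolar-like cells, where 0.417% of genes were called higher and 0.268% lower, and 0 in rod bipolar-like cells, where 1.29% were called higher and 1.18% lower. With the replicate block 1 member was called lower in rod bipolar-like cells, Lgals1, where 3.16% of genes were called higher and 3.09% lower.

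Other genes of the same families were tested in the same fits, with edgeR's quasi-likelihood test and Benjamini-Hochberg adjustment over all genes of the cell type. This list and the partner and actin lists below were also chosen with earlier results of these data known. Of 30 further S100, annexin, galectin and Crip genes 16 passed the filter in Müller-like cells, and 2 rose and 0 fell, where 1.52% and 1.02% of all genes did. Anxa2, the annexin partner of S100a10, stood at 41.8, 26.6 and 30.5 CPM in the OIR samples and at 3.38, 1.68 and 3.64 CPM in the control samples. These values rested on 503 UMIs in the OIR samples and 29 in the control samples. The rod-like level of Anxa2 was 96.0%, 108% and 33.9% of the Müller-like level in the control samples, and 11.7% to 12.8% in the OIR samples. In Müller-like cells Anxa2 was higher in 3 of 3 OIR samples, with a log2 fold change of 3.43 (SE 0.32) and an adjusted p of 0.00145 by edgeR. Its partner S100a10, shown above, overlapped between the groups. Lgals9, a galectin that binds the receptor Tim-3, stood at 6.70, 5.94 and 12.3 CPM against 0.888, 0.420 and 0.607 CPM, a log2 fold change of 3.39 (SE 0.49, adjusted p = 0.00961 by edgeR). Its control values were near the floor, since a count of 0 would allow up to 1.26 CPM in Ctrl-2 and 1.82 CPM in Ctrl-3.

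The other family genes that passed the filter, besides Anxa2 and Lgals9, were not called in Müller-like cells. S100a16 stood at 690, 586 and 679 CPM against 343, 533 and 587 CPM (edgeR adjusted p = 0.480), and S100a1 at 325, 282 and 297 CPM against 249, 338 and 293 CPM (edgeR adjusted p = 0.968). Lgals3, a galectin of activated macrophages and glia, stood at 67.7, 38.8 and 38.6 CPM against 16.9, 26.5 and 26.1 CPM, all OIR samples higher, with an edgeR adjusted p of 0.0810. In the other 8 types 1 family gene was called, Anxa7 in rod bipolar-like cells, which fell by 0.71 on the log2 scale (SE 0.16, edgeR adjusted p = 0.0281), from 73.0, 76.2 and 87.4 CPM in the control samples to 52.7, 50.2 and 41.4 CPM in the OIR samples. That call was lost without OIR-2, OIR-3, Ctrl-2 or Ctrl-3 (adjusted p between 0.0814 and 0.140). With the replicate block 3 family genes were called in neurons, S100a16 higher in cone-like cells and Crip2 higher and Anxa7 lower in rod bipolar-like cells.

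Of 17 genes whose proteins bind or act with the members, 12 passed the filter in Müller-like cells. Of these 2 rose and 0 fell, where 1.52% of all genes rose and 1.02% fell. Plat, tissue plasminogen activator, which the S100a10 and Anxa2 pair can bind, stood at 173, 154 and 132 CPM against 67.9, 72.7 and 63.8 CPM (log2 fold change 1.10, SE 0.15, edgeR adjusted p = 0.00809). Lgals3bp, a secreted galectin-binding protein, stood at 41.2, 24.7 and 51.6 CPM against 12.3, 18.1 and 8.50 CPM (log2 fold change 1.52, SE 0.30, edgeR adjusted p = 0.0288), a call lost without OIR-1, OIR-3, Ctrl-2 or Ctrl-3, with adjusted p between 0.0510 and 0.117. Ahnak, a scaffold bound by S100a10, did not pass, with a log2 fold change of -0.52 (edgeR adjusted p = 0.422), nor did Cd44 or Itgb1. No partner gene was called in the other 8 types in the fit without a block. With the replicate block Plgrkt was called higher in rod bipolar-like cells (log2 fold change 0.61, edgeR adjusted p = 0.0204), where 3.16% of all genes were. Hltf was then called lower in rod-like cells (log2 fold change -0.41, edgeR adjusted p = 0.0429), where 4.75% of all genes were.

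Of 33 actin-binding, cell cortex and LIM-domain genes, 28 passed the filter in Müller-like cells. Of these 4 rose and 0 fell, where 1.52% of all genes rose and 1.02% fell. Tagln2 stood at 196, 133 and 141 CPM against 41.6, 43.7 and 55.9 CPM (log2 fold change 1.70, SE 0.21, edgeR adjusted p = 0.00456). Pdlim1, a LIM protein of stress fibres, stood at 53.6, 76.3 and 54.5 CPM against 25.2, 25.6 and 24.3 CPM (log2 fold change 1.21, SE 0.17, edgeR adjusted p = 0.00809). Zyx, at focal adhesions, and Pdlim2 rose by 1.23 (SE 0.22) and 2.18 (SE 0.45) on the log2 scale, with edgeR adjusted p of 0.0183 and 0.0313. The call of Zyx was lost without OIR-1, OIR-3, Ctrl-2 or Ctrl-3 and that of Pdlim2 without any 1 sample other than Ctrl-1. The other LIM proteins Csrp1, Csrp2 and Pdlim4 did not pass, and neither did Vim, at an edgeR adjusted p of 0.0979.

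In neurons 4 genes of this list rose and 0 fell, where 0.808% of all genes rose and 0.479% fell in cone-like cells and 1.17% rose and 0.745% fell in rod-like cells. Tpm4 and Vim rose in cone-like cells, by 1.37 and 1.16 on the log2 scale (edgeR adjusted p = 0.0442 and 0.0471), and Ezr and Tmsb10 rose in rod-like cells, by 2.29 and 1.66 (edgeR adjusted p = 0.00981 and 0.0178). Each call was lost when single samples were left out, with adjusted p between 0.0535 and 0.326. This was so for any sample but Ctrl-1 for Tpm4, for OIR-2, OIR-3, Ctrl-2 and Ctrl-3 for Vim, for OIR-2, OIR-3 and Ctrl-2 for Ezr, and for OIR-2, Ctrl-2 and Ctrl-3 for Tmsb10. With the replicate block 10 calls were higher and 1 lower in rod-like, cone-like and both kinds of bipolar-like cells. These included Vim in each of the 4 types and the 4 calls above. Of all genes the block called 2.15% higher and 1.58% lower in cone-like cells and 1.65% and 1.79% in cone bipolar-like cells. In rod-like cells it called 5.07% higher and 4.75% lower, and in rod bipolar-like cells 3.16% and 3.09%. In the same cone-like cells S100a6 was the member without overlap between the groups, at 3.44, 6.26 and 4.02 CPM in the OIR samples and at 1.94, 1.75 and 3.21 CPM in the control samples, on no more than 12 UMIs a sample. This held for 1 of the 5 members with at least 30 UMIs, where 11.4% of genes were higher without overlap.

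**Figure D4:**
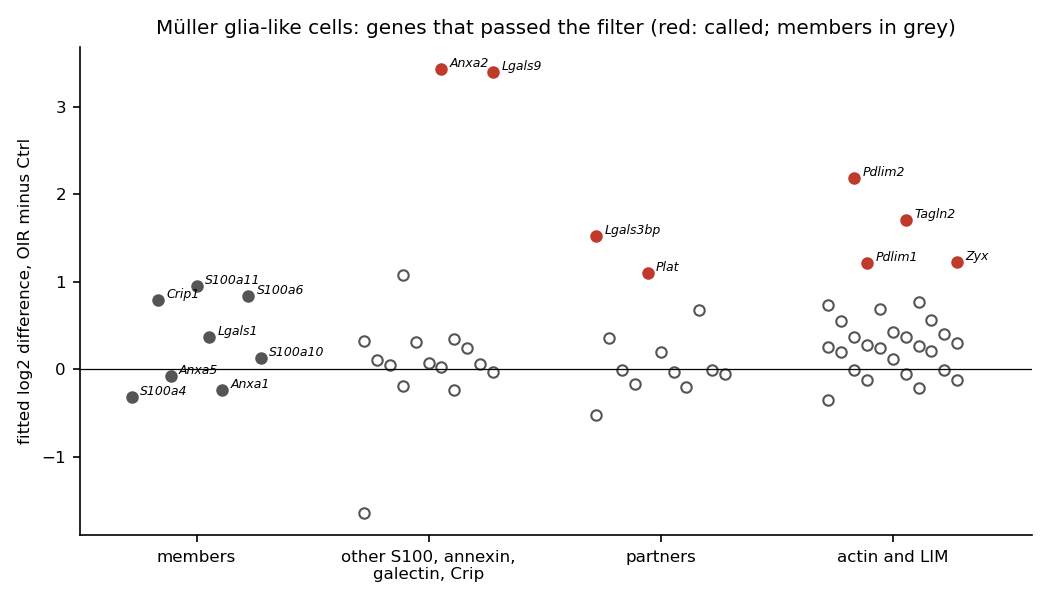
Log2 fold change of OIR over control in Müller-like cells for the members and for the genes of the family, partner and actin and LIM lists that passed the filter, 1 point per gene. Members are grey because they were chosen on this contrast, red points are other genes called at an adjusted p under 0.05, and open points were not called. The other lists were also chosen with earlier results of these data known. Among the red points are Anxa2 at 3.43 and Lgals9 at 3.39, and S100a6, S100a11 and Crip1 lie between 0.79 and 0.95.

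Across other ways of processing the same Müller-like cells the values of the members differed in how far they moved. Over 17 other settings the log2 fold change ranged from 0.67 to 1.59 for S100a11, from 0.55 to 1.09 for Crip1 and from 0.27 to 1.44 for S100a6, so that each stayed above 0. It crossed 0 for S100a10 (-0.17 to 0.53), Anxa5 (-0.44 to 0.42), Anxa1 (-0.49 to 0.44) and S100a4 (-0.70 to 0.26). For Anxa2 the range was 3.15 to 4.43. The groups did not overlap for S100a11, Crip1 and S100a6 over all Müller-like cells. Leaving samples out therefore left little room for a change of sign, and nothing is read from it. The settings include the fit with a sex term, which set the OIR samples against Ctrl-1 alone.

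**Figure D5:**
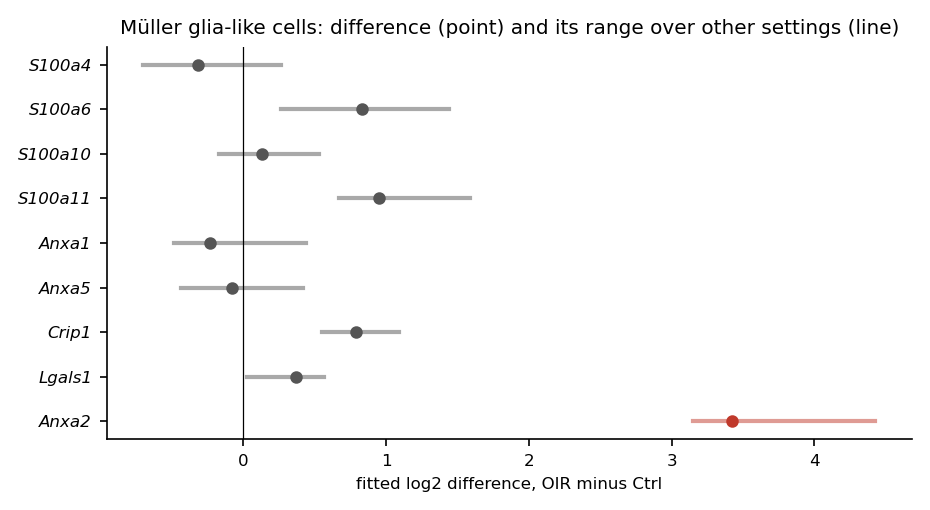
Log2 fold change of each member and of Anxa2 in Müller-like cells under the reported fit (point), with a line from the lowest to the highest value over the 17 other settings. S100a11, Crip1, S100a6, Lgals1 and Anxa2 stay above 0 over the whole line, and the lines of the other 4 cross it. The settings include the fit with a sex term, which set the OIR samples against Ctrl-1 alone.

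The genes with the pattern most like that of the members were found from 60 sums of a sample and cell type, which share depth and libraries, by Pearson correlation of log2(CPM + 1) with the mean of the 8 members over 14566 genes. The 10 highest were Adamts1 (0.89), Vim (0.89), Id1, Ccdc102a and Acsf2 (each 0.87), and Tcim, Epha2, Clic1, Anxa11 and Tnfaip8 (each 0.86). By Spearman correlation 1 of these 10 was among the first 10. The members themselves correlated with their own mean between 0.69 for Lgals1 and 0.90 for S100a11.

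Cell types that carry few of these transcripts differed in number between samples as well. RPE-like cells made up 0.314%, 0.782% and 0.669% of kept cells in the OIR samples and 0.504%, 1.36% and 0.214% in the control samples (difference -0.104 percentage points, exact permutation test, two-sided, p = 0.9). Lens-like cells made up 0.231%, 2.58% and 1.20% against 0.126%, 0.652% and 0.854% (difference 0.795 percentage points, exact permutation test, two-sided, p = 0.4). With 3 samples against 3 the smallest p this test can give is 0.1.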

How the data were processed

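The authors deposited raw UMI counts per gene and cell barcode, unfiltered beyond cell calling, in 1 matrix for each of 6 samples. The matrix headers name software version 3.1.0 and the labels the mm10 build. Barcodes with 500 to 5000 genes and at most 20% mitochondrial UMIs were kept, 38569 of 47631. They were integrated and clustered with Seurat 5.3.0 in R 4.3.3 (2000 variable genes, 15 components, 20 neighbours, resolution 0.5), and clusters were named from marker lists. Doublets were not removed, other than in an alternative that took out the 2491 cells with the highest Scrublet scores (0.8% per 1000 barcodes).

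UMIs were summed per sample and cell type and fitted with edgeR 4.0.16 (quasi-likelihood test, TMM, filterByExpr, Benjamini-Hochberg adjustment over all genes of the type, called at adjusted p under 0.05 and log2 fold change of at least 0.25). DESeq2 1.42.0, no filter, other cell filters, Leiden clusters, a sex term, a replicate block and leaving out each sample were alternatives. Exact 95% intervals, and the bound of 3 counts given for a count of 0, reflect counting error alone. On simulated Müller-like data with 11533 genes and 200 changed, 65% of 2-fold, 97.5% of 4-fold and 0% of 1.5-fold changes were recovered. Of the genes called there, 6.47% at 2-fold and 8.02% at 4-fold had not been changed, beside the limit of 0.05 on the adjusted p. Python 3.11.15, scanpy 1.11.5, scipy 1.17.1 and matplotlib 3.10.9 were also used.

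The members and gene lists were chosen with earlier results of these data known. Named genes were the 8 members, list genes called in a tested cell type (at most 6 per list and type), and the 10 genes most like the members' mean. Ahnak, Cd44, Itgb1, S100a1, S100a16, Lgals3, Csrp1, Csrp2, Pdlim4 and Vim in Müller-like cells, Vim in rod-like and bipolar-like cells, S100a16 in cone-like cells, and Crip2, S100a8, S100a9 and Igkc, were named after their values were seen. The same holds for Plgrkt and Hltf. Deviations of same-numbered samples from their group means correlated at 0.692, 0.243 and 0.621 over all kept cells and above 0.1 for each number in rod-like, cone-like, rod bipolar-like and cone bipolar-like cells, where they were taken as pairs and blocked values are given. In Müller-like cells they correlated at 0.209, -0.0958 and 0.326, and in microglia-like, amacrine-like, RPE-like and VEC-like cells at least 1 number stayed below 0.1. The labels tie the numbers to no litter or day, so the pairs were inferred from these same data. The lowest cone-like value, for number 2, was 0.105, just above the limit.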

Additional observations from a re-analysis of the deposited data

Results flagged for a closer look

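Lgals1 differed in opposite directions between cell types. The ratio of the OIR to the control mean was 3.19 in RPE-like cells and 3.56 in smooth muscle and pericyte-like cells, where every OIR sample was above every control sample, and 0.293 in rod bipolar-like cells, where every OIR sample was below. RPE-like cells held 42 Lgals1 UMIs in the OIR samples and 14 in the control samples, and rod bipolar-like cells 25 and 67. Mural cells were few, and those of OIR-3 carried mostly fibroblast markers. Of genes with at least 30 UMIs, 5.47% in RPE-like and 3.65% in mural cells were higher in OIR without overlap. In rod bipolar-like cells 7.20% were lower. The difference between the cell types was not tested.

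S100a8 and S100a9, S100 genes of neutrophils that are no members, were at 24.6 and 27.6 CPM over all kept cells of OIR-1 (811 and 907 UMIs) and at 0 in the other 5 samples, including all 3 controls.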

How the results depend on the processing

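Counts of calls moved with the settings. Fits with a sex term set the OIR samples against Ctrl-1 alone, the lowest sample for 7 of the 8 members in Müller-like cells. Only log2 fold changes are given for them. Counts of all genes called moved with the settings as well, and nothing is read from the counts of members. Over 9 cell types, members called higher numbered 1 as reported, 4 with DESeq2, 6 without a filter, 2 with Leiden clusters, a mitochondrial limit of 10% or high Scrublet scores removed, and 0 to 5 when 1 sample was left out. In rod-like cells all genes called higher numbered 137 of 11673 as reported, 321 of 11673 with DESeq2, 274 of 19130 without a filter and 12 to 551 with 1 sample left out. Members called lower numbered 0 as reported, 3 without a filter, 1 with the mitochondrial limit and 0 to 1 with 1 sample left out. In rod bipolar-like cells 110 of 9332 genes were called lower as reported, 277 of 17480 without a filter and 126 of 9347 with the mitochondrial limit. Without a filter 60 of 15551 genes were called lower in microglia-like cells. In VEC-like cells 2 members were called higher without a filter, where 39 of 13955 genes were. There 2 were called higher without OIR-3, where 5 of 1196 genes were. Without Ctrl-1, Ctrl-2 or Ctrl-3 it was 1 member each, where 6 of 1219, 4 of 1234 and 5 of 1240 genes were called higher. In Müller-like cells members called higher numbered 1 as reported, 3 with DESeq2 or no filter, 2 with Leiden clusters, the mitochondrial limit or Scrublet, and 0 to 2 with 1 sample left out. All genes called higher there numbered 175 of 11533 as reported, 219 of 11533 with DESeq2 and 382 of 18855 without a filter. They numbered 173 of 11599 with Leiden clusters, 187 of 11477 with the mitochondrial limit, 198 of 11426 with Scrublet and 49 to 222 with 1 sample left out. Family genes called higher went from 2 to 11 without a filter, and those lower numbered 0 to 1 with 1 sample left out, in place of 1. Partner genes called higher went from 2 to 4 without a filter and 1 to 2 with 1 sample left out, and those lower from 0 to 0 to 1. Actin and LIM genes called higher went from 8 to 18 without a filter and 2 to 15 with 1 sample left out, and those lower from 0 to 1 and 0 to 3.

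With the replicate number as a block the counts were 3 members higher (Crip1 and S100a11 in Müller-like, S100a6 in rod-like cells) and 1 lower (Lgals1 in rod bipolar-like cells) over 9 types, 2 higher in Müller-like cells, 5 family genes higher, 1 partner gene lower, and 14 actin and LIM genes higher and 1 lower. The partner gene called lower was Hltf in rod-like cells. Plat and Lgals3bp in Müller-like cells and Plgrkt in rod bipolar-like cells were called higher. The block called 248 of 11533 genes higher in Müller-like cells, 592 of 11673 higher in rod-like cells and 288 of 9332 lower in rod bipolar-like cells. In Müller-like cells, which were not taken as pairs, 4 of 6 samples correlated best with their own number. This was also so for 4 in cone-like, 5 in rod-like and 6 in rod bipolar-like and cone bipolar-like cells. It was so for 6 in RPE-like cells too, which were not taken as pairs.

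Settings chosen after seeing the data gave, with replicates 2 and 3 alone, 3 members higher and 1 lower, 5 family genes higher, 2 partner genes lower, and 17 actin and LIM genes higher and 3 lower. That setting called 192 of 11371 genes higher in Müller-like cells, 1207 of 11787 higher in rod-like cells and 357 of 9238 lower in rod bipolar-like cells. In the high-UMI and low-UMI Müller-like clusters 0 and 2 members were called higher, in the high-UMI microglia-like cluster 1 (Lgals1) in place of 0, and in rod-like cells without the cluster with Müller RNA 0, as with it. All genes called higher in these fits numbered, in that order, 148 of 11187, 50 of 6589, 10 of 3393 and 185 of 11485.

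Log2 fold changes in Müller-like cells changed sign for S100a4 (-0.31 as reported, 0.26 with a sex term, 0.0027 in the low-UMI cluster), for Anxa1 (-0.23, 0.44 with a sex term, -0.49 to 0.0900 with 1 sample left out, the highest without Ctrl-3), for S100a10 (0.13, -0.0346 to 0.31 with 1 sample left out, below 0 without Ctrl-1 and, at -0.01, without OIR-1, -0.17 with replicates 2 and 3 alone) and for Anxa5 (-0.08, 0.22 with a sex term, -0.31 to 0.0414 with 1 sample left out, above 0 without OIR-3 and, at 0.01, without Ctrl-3, 0.42 in the low-UMI cluster). The difference in RPE-like share (-0.104 percentage points) ranged from -0.343 to 0.230 with 1 sample left out, above 0 without Ctrl-2 and, at 0.0333, without OIR-1. Without thinning 0 members in place of 3 had separate shares of Müller-like cells, with no count over all genes beside it. By Spearman correlation 1 of the 10 most alike genes was kept. The cause of these shifts was not tested. Depth limits VEC-like, lens-like, astrocyte-like, RPE-like and mural cells, which were few.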
